A study of Mus musculus with 4 samples.

Results

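The genes described here encode receptors and effectors with which macrophages take up and digest particles, and there are 9 of them among the 18194 genes that the array measures with a uniquely named probe set. They are Gas6, Mertk, Axl, Msr1, Fcgr1, Fcgr3, Fcgr4, Mpeg1 and Lyz2. They were chosen by name: every probe set whose platform annotation gives exactly 1 symbol equal to a member was taken, which made 15 of 45101 probe sets. All 9 genes reached the detection floor of 4 (log2) on at least 1 array, and they are 9 of the 8650 genes that did.

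Macrophages clear dying cells by efferocytosis, in which bridging proteins such as Gas6 link phosphatidylserine on the dying cell to the TAM receptor tyrosine kinases Tyro3, Axl and Mertk. They take up antibody-coated targets through Fc gamma receptors. The activating receptors Fcgr1, Fcgr3 and Fcgr4 signal through the common gamma chain Fcer1g, and Fcgr2b is inhibitory. Kupffer cells, which are macrophages resident in the liver sinusoids, do much of this work for the blood that passes the liver, and sinusoidal endothelial cells are a major site of Fcgr2b.

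Livers came from male C57BL/6J mice that were 8 to 12 weeks old when they began 20 weeks of low-fat or high-fat feeding, in which fat supplied 10% or 45% of the energy and palm oil replaced lard. In the last week the mice were injected 2 times into the peritoneal cavity with liposomes loaded with clodronate, a drug lethal to phagocytes that swallow it, or with PBS. Equal amounts of RNA from each mouse were pooled, 8 mice to a low-fat group and 10 to a high-fat group, and each of the 4 pools was hybridised to 1 array. The groups were low-fat PBS, low-fat clodronate, high-fat PBS and high-fat clodronate, all of the same strain with no engineered allele. A group was 1 pooled array, so the spread between mice was not measured, and the PBS injection does not separate the effect of liposomes from that of clodronate. The number of arrays limits the precision.

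The signal of Kupffer cell and macrophage markers fell with clodronate, and that of other liver cells was not called. All 9 Kupffer cell markers tested and 11 of 11 pan-macrophage markers fell (limma, Benjamini-Hochberg adjustment), while 0 of 9 sinusoidal endothelial, 0 of 8 stellate and 0 of 8 hepatocyte markers were called. Clec4f, Vsig4, Timd4, Marco, Cd163, Folr2, Adgre1, Cd68, C1qa, C1qc and Aif1 reached 4 only on PBS arrays. They entered the tests through the group in which they were high, so the counts describe the markers and support nothing further. The summed linear signal of the Kupffer cell list was 6079 on low-fat PBS and 5606 on high-fat PBS, against 1496 and 1324 on the matching clodronate arrays. Slc40a1, the iron exporter, and Fcna made up 1461 and 1243 of these clodronate sums. The other 7 markers summed to 3676 and 3260 with PBS and to 35.3 and 81.2 with clodronate, the low-fat value first. That of the hepatocyte list was between 117620 and 120309 on the 4 arrays. Clec4f, the Kupffer cell lectin, was below 4 on both clodronate arrays. In whole liver, fewer cells of a type and less RNA per cell cannot be told apart. Array medians of the 45101 probe sets ranged from 2.73 to 2.79 (log2).

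Of the 9 genes, 4 fell after clodronate and 0 rose when the effect was averaged over the diets. Fcgr3, Axl, Fcgr4 and Lyz2 fell, Msr1, Fcgr1, Mpeg1 and Mertk had lower deposited values after clodronate on both diets without passing the test, and the ligand Gas6 was nearly level. Over all 8650 genes 84 fell, which is 0.971%, and 10 rose, which is 0.116%. The median log2 difference on the low-fat diet was -0.56 over the 9 genes and 0.04 over all genes, with values below 4 taken as 4. On the high-fat diet the medians were -0.83 and -0.05. In the member medians Axl, Fcgr3 and Fcgr4 enter as bounds. Fcgr1 enters as a bound on the high-fat diet and, not measurable, as 0 on the low-fat diet. The floor therefore partly sets these medians. Axl, Fcgr3 and Fcgr4 reached 4 only on the PBS arrays, and Fcgr1 only on the high-fat PBS array, so that these members entered the tests through the group in which they were high. The counts therefore describe the genes and support nothing further.

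**Figure D1:**
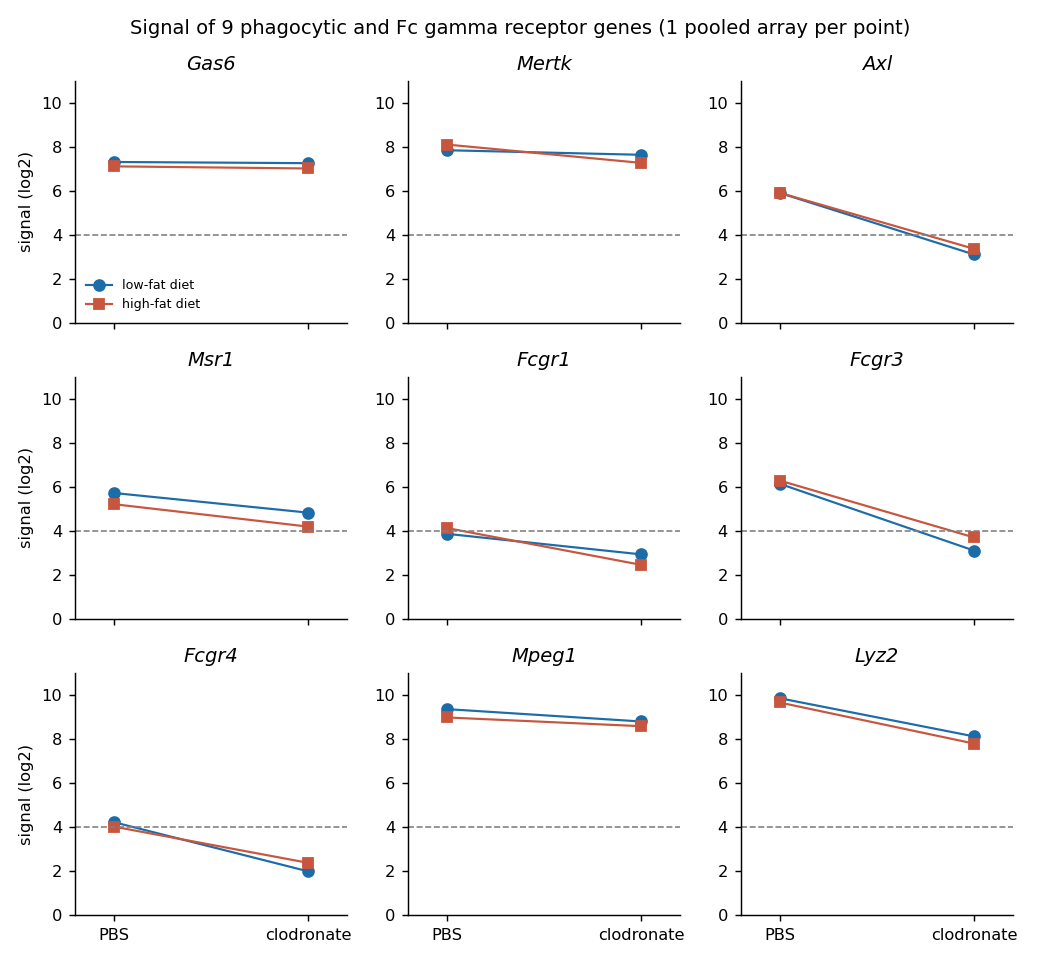
Signal (log2) of each gene on the PBS and clodronate arrays, with the low-fat diet as blue circles, the high-fat diet as red squares and the floor of 4 as a dashed line. Each point is 1 pooled array without an error, and Lyz2 and Fcgr3 lie lower on both clodronate arrays while Gas6 stays between 7.02 and 7.32.

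Among the ligand and receptors of efferocytosis, the receptor Axl fell, and its ligand and the related receptor Mertk did not pass. Gas6, the vitamin K-dependent bridging protein, was at 7.32 on the low-fat PBS array, 7.26 on low-fat clodronate, 7.12 on high-fat PBS and 7.02 on high-fat clodronate (log2 signal). The low-fat arrays were slightly above the high-fat arrays, and each clodronate array was within 0.10 of its PBS array. The mean difference of Gas6 between clodronate and PBS was -0.08 ± 0.03 (SD over the 2 diets, n = 2; limma, Benjamini-Hochberg adjusted p = 1), with a 95% interval from -0.39 to 0.24. A second Gas6 probe set was below 4 on all 4 arrays.

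Axl, a TAM receptor kinase induced by inflammatory signals, was at 5.91 on both PBS arrays, 3.11 on low-fat clodronate and 3.37 on high-fat clodronate. The PBS and clodronate arrays did not overlap, and both clodronate arrays lay below the floor. Axl signal was therefore at least 3.76-fold lower on the low-fat diet and at least 3.77-fold lower on the high-fat diet. With the values as deposited, Axl fell by 2.68 ± 0.18 (log2; SD over the 2 diets, n = 2; limma, Benjamini-Hochberg adjusted p = 0.000119). Its second probe set was below 4 on all 4 arrays, at most at 1.80.

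Mertk, the TAM receptor that resting macrophages use to engulf dying cells, was at 7.85 on low-fat PBS, 7.64 on low-fat clodronate, 8.11 on high-fat PBS and 7.27 on high-fat clodronate. Its lowest and highest signals were both on the high-fat diet, and each clodronate array was below both PBS arrays. Mertk signal was 1.16-fold lower after clodronate on the low-fat diet and 1.78-fold lower on the high-fat diet. The mean difference was -0.52 ± 0.44 (SD over the 2 diets, n = 2; limma, Benjamini-Hochberg adjusted p = 0.472), with a 95% interval from -0.88 to -0.16. Mertk was thus detected well above the floor on arrays on which Axl was not. Tyro3, the other TAM receptor, was below 4 on all 4 arrays.

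Msr1, scavenger receptor A, which binds modified lipoproteins and bacterial surfaces, was at 5.73 on low-fat PBS, 4.83 on low-fat clodronate, 5.22 on high-fat PBS and 4.19 on high-fat clodronate. Both clodronate arrays were below both PBS arrays, and within each injection the high-fat array was the lower one. The signal of Msr1 was 1.86-fold lower on the low-fat diet and 2.03-fold lower on the high-fat diet after clodronate. The mean difference of -0.96 ± 0.09 did not pass (SD over the 2 diets, n = 2; limma, Benjamini-Hochberg adjusted p = 0.0729). The other 3 Msr1 probe sets never reached the floor, with 3.72 as their highest value, so these values rest on 1 probe set.

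The activating Fc gamma receptors were dim in these livers, and Fcgr3 was the member among them with signal clearly above the floor on PBS arrays. RefSeq promoters of 8 of the 9 genes were in the promoter table (build GRCm38.p6), and Msr1 was not. The promoters of Fcgr1, Fcgr3 and Fcgr4 are shown for the purine-rich letters GAGGAAG, part of the element bound by the myeloid factor PU.1. The lines give the 80 bases just before each RefSeq gene start, 5′ to 3′ on the gene's strand, with the match in capitals. The match lies on the reverse strand and reads CTTCCTC here.
Fcgr1: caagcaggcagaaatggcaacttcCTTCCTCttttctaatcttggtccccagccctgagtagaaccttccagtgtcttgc
Fcgr3: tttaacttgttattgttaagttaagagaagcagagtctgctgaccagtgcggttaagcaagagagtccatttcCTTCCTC
Fcgr4: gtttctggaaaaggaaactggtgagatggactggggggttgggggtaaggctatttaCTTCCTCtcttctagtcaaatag
These windows are chr3:96293970-96294049 on the minus strand for Fcgr1, chr1:171059404-171059483 on the minus strand for Fcgr3 and chr1:171018846-171018925 on the plus strand for Fcgr4. In windows from 250 bases before to 50 bases after the start, searched on both strands, GAGGAAG was in the promoters of Axl, Fcgr1, Fcgr3 and Fcgr4, 4 of 8 members, and in 13.6% of the 32851 promoters of the table. These letters were chosen after the member promoters had been seen. The longer GAGGAAGT, which contains them, was in the promoter of Fcgr4 alone, 1 of 8, and in 3.20% of all promoters. The AP-1 letters TGACTCA were in 0 of 8 and in 5.20% of all, and the TATA box letters TATAAA in 0 of 8 and in 13.6% of all. In these counts a member had a match if any of its promoters did, while the percentages are of single promoters. Fcgr3 had more than 1 promoter in the table. A match describes the sequence and is not evidence that a factor binds there.

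Fcgr3, the low-affinity activating receptor for IgG, was at 6.15 on low-fat PBS, 3.11 on low-fat clodronate, 6.29 on high-fat PBS and 3.70 on high-fat clodronate. Both clodronate arrays were below the floor and both PBS arrays more than 2 (log2) above it. The signal was at least 4.43-fold lower on the low-fat diet and at least 4.91-fold lower on the high-fat diet. As deposited, Fcgr3 fell by 2.82 ± 0.32 (SD over the 2 diets, n = 2; limma, Benjamini-Hochberg adjusted p = 9.39e-05), the largest mean difference of the 9 genes.

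Fcgr4, an activating receptor for IgG2a and IgG2b in mice, was at 4.22 on low-fat PBS, 1.98 on low-fat clodronate, 4.02 on high-fat PBS and 2.37 on high-fat clodronate. The PBS arrays were only just above the floor, so that the bounds were small, at least 1.16-fold lower on the low-fat diet and at least 1.01-fold on the high-fat diet. As deposited, Fcgr4 fell by 1.94 ± 0.42 (SD over the 2 diets, n = 2; limma, Benjamini-Hochberg adjusted p = 0.00406). This call rests on values below the floor: with values below 4 set to 4 the mean difference was -0.12 (limma, Benjamini-Hochberg adjusted p = 1), and without the mean-dependent prior the adjusted p was 0.0623.

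Fcgr1, the high-affinity IgG receptor, was at 3.87 on low-fat PBS, 2.93 on low-fat clodronate, 4.13 on high-fat PBS and 2.46 on high-fat clodronate. It reached the floor on the high-fat PBS array alone, so no difference could be measured on the low-fat diet. With high-fat feeding the signal was lower by at least 1.10-fold after clodronate, and the mean difference of -1.31 ± 0.52 as deposited did not pass (SD over the 2 diets, n = 2; limma, Benjamini-Hochberg adjusted p = 0.0573).

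The inhibitory receptor Fcgr2b was not called. Its brightest probe set was at 9.80 and 10.00 on the low-fat PBS and clodronate arrays and at 9.90 and 9.95 on the high-fat ones. The mean difference was 0.13 ± 0.10 (SD over the 2 diets, n = 2; limma, Benjamini-Hochberg adjusted p = 1), with a 95% interval from -0.07 to 0.32. Of 5 Fcgr2b probe sets 4 were above the floor on all arrays, with mean differences between 0.10 and 0.26. The gamma chain Fcer1g, through which the activating receptors signal, was at 6.94 and 6.79 with PBS and at 5.31 and 5.24 with clodronate, the low-fat value first. It stayed above the floor on all 4 arrays and fell by 1.59 ± 0.06 (SD over the 2 diets, n = 2; limma, Benjamini-Hochberg adjusted p = 0.000979).

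Of the proteins that act on engulfed microbes, Lyz2 fell and Mpeg1 did not pass. Mpeg1, perforin-2, forms pores in membranes of engulfed bacteria, and it was at 9.37 on low-fat PBS, 8.80 on low-fat clodronate, 8.99 on high-fat PBS and 8.59 on high-fat clodronate. Both clodronate arrays were below both PBS arrays, by a narrow margin between high-fat PBS and low-fat clodronate. The signal of Mpeg1 was 1.48-fold lower on the low-fat diet and 1.32-fold lower on the high-fat diet, so that 67.7% and 75.9% of the PBS signal was left. The mean difference of -0.48 ± 0.12 did not pass (SD over the 2 diets, n = 2; limma, Benjamini-Hochberg adjusted p = 0.083).

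Lyz2, the lysozyme of myeloid cells, was at 9.86 on low-fat PBS, 8.12 on low-fat clodronate, 9.67 on high-fat PBS and 7.80 on high-fat clodronate. It was measured above the floor on all 4 arrays, and PBS and clodronate arrays did not overlap. The signal was 3.34-fold lower on the low-fat diet and 3.65-fold lower on the high-fat diet, which left 30.0% and 27.4% of the PBS signal. Lyz2 fell by 1.80 ± 0.09 (SD over the 2 diets, n = 2; limma, Benjamini-Hochberg adjusted p = 1.3e-05). Among the called members, Lyz2 alone was above the floor on all 4 arrays. With values below 4 set to 4 before the fit, Axl and Fcgr3 were still called (limma, Benjamini-Hochberg adjusted p = 0.00332 and 0.00228).

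Lyz1, the lysozyme best known from Paneth cells of the gut, is a near copy of Lyz2, and the neighbouring promoters show how close they are. The lines give the 120 bases just before the RefSeq gene start, 5′ to 3′, with bases that differ between the genes in capitals.
Lyz2: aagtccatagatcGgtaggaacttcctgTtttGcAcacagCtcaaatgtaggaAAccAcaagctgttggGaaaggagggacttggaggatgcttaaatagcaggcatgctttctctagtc
Lyz1: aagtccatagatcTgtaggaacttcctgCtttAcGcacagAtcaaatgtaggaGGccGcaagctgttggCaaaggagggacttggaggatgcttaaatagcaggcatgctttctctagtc
They are chr10:117282273-117282392 for Lyz2 and chr10:117292869-117292988 for Lyz1, both on the minus strand of GRCm38.p6. Of the 120 bases 111 were identical, 92.5%, and the 50 bases next to the start were the same. Of 3 Lyz1 probe sets, those of the x type, whose probes can also bind related transcripts, were lower after clodronate. The brighter was at 10.90 and 9.45 on the low-fat PBS and clodronate arrays and at 10.59 and 9.42 on the high-fat ones, a mean difference of -1.31 ± 0.19 (SD over the 2 diets, n = 2; limma, Benjamini-Hochberg adjusted p = 5.03e-05). The remaining Lyz1 probe set, which is not of that type, was below 4 on all 4 arrays, at most at 2.18. Signals of Lyz1 and Lyz2 may be mixed on the x-type probe sets and are uncertain as measures of Lyz1.

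**Figure D2:**
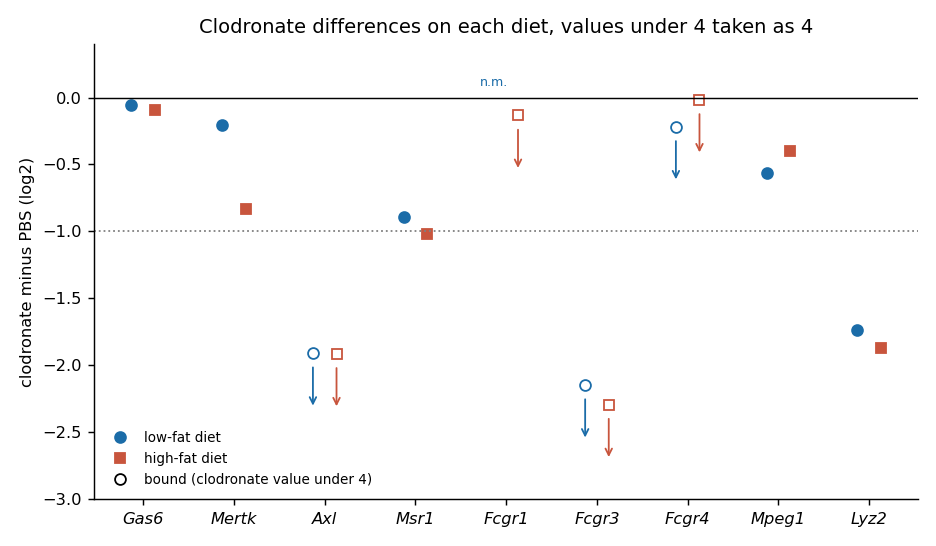
Difference between the clodronate and the PBS array (log2) for each gene, with the low-fat diet as circles and the high-fat diet as squares. Open symbols with arrows are bounds, n.m. marks Fcgr1 on the low-fat diet, which was below 4 on both arrays, the dotted line is a 2-fold lower signal, and Mertk is the gene whose measured differences on the diets lie farthest apart, at -0.21 and -0.83.

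On single pairs of arrays, for which there is neither a replicate nor a p-value, 3 of the 9 genes were 2-fold or more lower after clodronate on the low-fat diet and 4 on the high-fat diet. Axl, Fcgr3 and Lyz2 were so on both diets, and Msr1 joined them on the high-fat diet, just past the threshold. Over all genes 0.705% were 2-fold or more lower on the low-fat diet and 0.809% on the high-fat diet. None of the 9 was 2-fold or more higher, against 0.22% and 0.0925% of all genes.

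How far the clodronate difference itself differed between the diets could be measured for the 5 members above the floor on all 4 arrays. The difference on the high-fat diet minus that on the low-fat diet was -0.13 for Lyz2, -0.13 for Msr1, 0.16 for Mpeg1 and -0.04 for Gas6 (log2). Over the 8144 genes at 4 or more on both PBS arrays, some of them below 4 on clodronate arrays and taken as 4, it had a median of -0.09, and the central 95% lay between -0.82 and 0.51. For Mertk it was -0.63, at percentile 6.26 of the 8144 genes and inside their central 95%. Axl, Fcgr3 and Fcgr4 were below the floor on both clodronate arrays, and Fcgr1 on 3 arrays, so that no such value is given for them. The 4 arrays left no degree of freedom to test these values.

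The high-fat diet was called for 0 of the 9 genes, averaged over the injections (limma, Benjamini-Hochberg adjusted p between 0.247 and 0.943), where 0.821% of all genes fell and 0.867% rose. At an unadjusted p under 0.05 there were 3 members, Mpeg1, Msr1 and Lyz2, each lower on the high-fat diet, and 13.2% of all 8650 genes had such a p. Msr1 had a mean diet difference of -0.57 ± 0.09 (SD over the 2 injections, n = 2; limma, Benjamini-Hochberg adjusted p = 0.251), and it was 1.42-fold lower with PBS and 1.55-fold lower with clodronate. Mpeg1 was 1.30-fold and 1.16-fold lower, and Lyz2 1.14-fold and 1.25-fold lower on the high-fat diet with PBS and with clodronate. Gas6 was 1.15-fold and 1.18-fold lower. Over all genes the median log2 diet difference was 0 with PBS and -0.08 with clodronate, with values below 4 taken as 4. Axl differed by 0.005 (log2) and Fcgr3 by 0.15 between the PBS arrays, and with clodronate both were below the floor on either diet. None of the 9 was 2-fold or more apart between diets, where 0.335% of all genes were 2-fold or more lower and 0.335% higher with PBS, and 0.74% lower and 0.358% higher with clodronate. The comparisons of diets and of injections use the same 4 arrays.

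**Figure D3:**
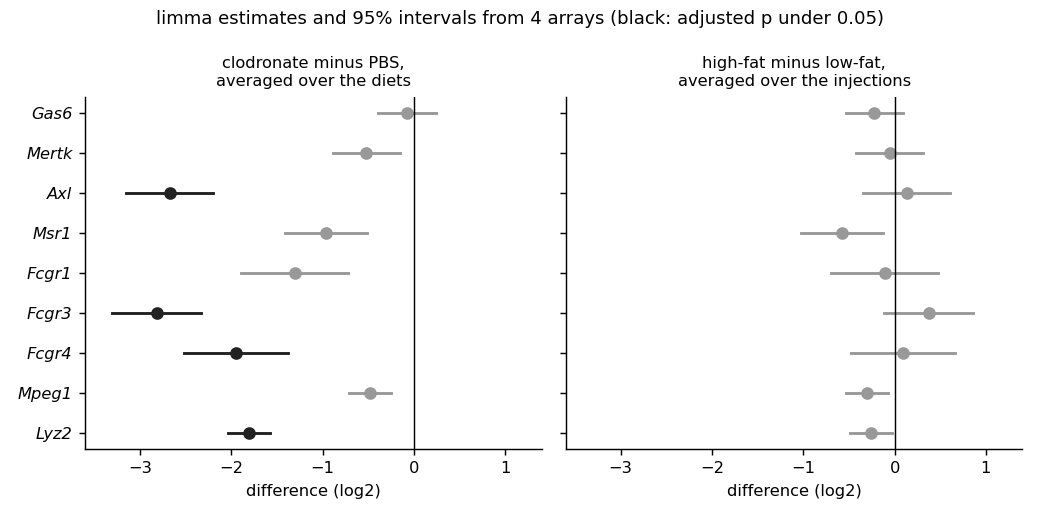
Mean log2 difference of each gene with its 95% interval from the additive limma model on 4 arrays, for clodronate minus PBS on the left and for high-fat minus low-fat diet on the right. Black marks adjusted p under 0.05, and the intervals of Axl and Fcgr3 lie below -2.19 for clodronate while no gene is black for diet.

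Among other genes of these pathways, in 5 lists that leave out the 9 genes above, 21 of 56 tested genes fell after clodronate and 0 rose. Over all 8650 genes 0.971% fell and 0.116% rose. Of the 21, 11 are also in the Kupffer cell or pan-macrophage marker lists. A set of 9 were below 4 on both clodronate arrays, so that the size of their fall as deposited rests on values below the floor. These 9 entered the tests through the PBS arrays, in which they were high. In the list of other TAM and efferocytosis genes 1 of 13 tested genes fell, with a median of -0.01. It was Timd4, the phosphatidylserine receptor of Kupffer cells, at most at 4.04 and below 4 on 3 of 4 arrays. Anxa1, annexin A1, had a mean difference of 0.79 ± 0.70 (SD over the 2 diets, n = 2; limma, Benjamini-Hochberg adjusted p = 0.392), and Adam17, the protease that sheds cell surface receptors, of -0.36 ± 0.14 (limma, Benjamini-Hochberg adjusted p = 1).

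Among partners and signalling genes of Fc receptors 1 of 6 tested genes fell, Fcer1g, with a list median of -0.03. Trim21, a cytosolic antibody receptor, had a mean difference of -0.27 ± 0.39 (limma, Benjamini-Hochberg adjusted p = 1). A further 7 of the 13 genes with a probe set, the kinase genes Syk and Btk among them, were below 4 on all 4 arrays, so that a difference in them was not measurable.

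Scavenger and lectin receptors fell in 5 of 12 tested genes, with a list median of -0.70 as deposited. With values below 4 taken as 4 the low-fat median was -0.54 and the high-fat median -0.01. Cd163, the haemoglobin scavenger receptor, fell by 5.67 ± 0.35 (adjusted p = 6.38e-07 in limma) and Cd68, a macrophage endosomal protein, by 2.71 ± 0.31 (adjusted p = 0.000155 in limma). Marco and the beta-glucan receptor Clec7a fell by 2.30 ± 1.09 and 1.85 ± 0.56. All 4 were below 4 on both clodronate arrays. The signal was at least 15.5-fold and 6.82-fold lower for Cd163, the low-fat diet first, at least 2.98-fold and 3.04-fold for Cd68 and at least 1.74-fold and 1.51-fold for Clec7a. For Marco it was at least 2.63-fold lower on the low-fat diet, and it was not measurable on the high-fat diet, where the PBS array was at 3.77. Mrc1, the mannose receptor, also found on sinusoidal endothelium, had a mean difference of -0.31 ± 0.03 (limma, Benjamini-Hochberg adjusted p = 0.441). Cd36, a fatty acid and scavenger receptor, had one of -0.07 ± 0.21 with clodronate, and rose with the high-fat diet in limma, with differences of 0.73 with PBS and 1.03 with clodronate.

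Complement and integrin receptors of phagocytes, listed with the C1q chains and properdin, fell in 7 of 9 tested genes, with a median of -3.47 as deposited, or, with values below 4 taken as 4, a low-fat median of -3.39 and a high-fat one of -2.89. Vsig4, the complement receptor of Kupffer cells, and the C1q chains C1qa, C1qc and C1qb fell by 7.45, 6.70, 6.23 and 4.88 as deposited. Vsig4, C1qa and C1qc were below 4 on both clodronate arrays, and with the floor their differences were -5.91, -5.44 and -4.30 on the low-fat diet and -5.66, -5.28 and -4.13 on the high-fat diet. C1qb was at 4.04 and 6.02 on the clodronate arrays. Cr1l, a complement regulator made by many cells, had a mean difference of 0.06 ± 0.10 (limma, Benjamini-Hochberg adjusted p = 1).

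Genes of the phagosome oxidase and of digestion fell in 7 of 16 tested genes, with a median of -0.19. Cybb, the catalytic subunit of the oxidase, fell by 2.86 ± 0.22 as deposited. It was at 4.13 on low-fat clodronate and below the floor, at 3.82, on high-fat clodronate. Its signal was 6.53-fold lower on the low-fat diet and at least 7.16-fold lower on the high-fat diet. Ctss, cathepsin S, fell by 2.48 ± 0.56 and Laptm5, a lysosomal protein of blood cells, by 2.24 ± 0.40. Slc11a1, which moves metal ions out of phagosomes, fell by 2.11 ± 0.23. Ctsd and Ctsb, cathepsins found in most cells, had mean differences of -0.20 ± 0.15 and -0.18 ± 0.06 and did not pass (limma, Benjamini-Hochberg adjusted p = 1 and 0.666).

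**Figure D4:**
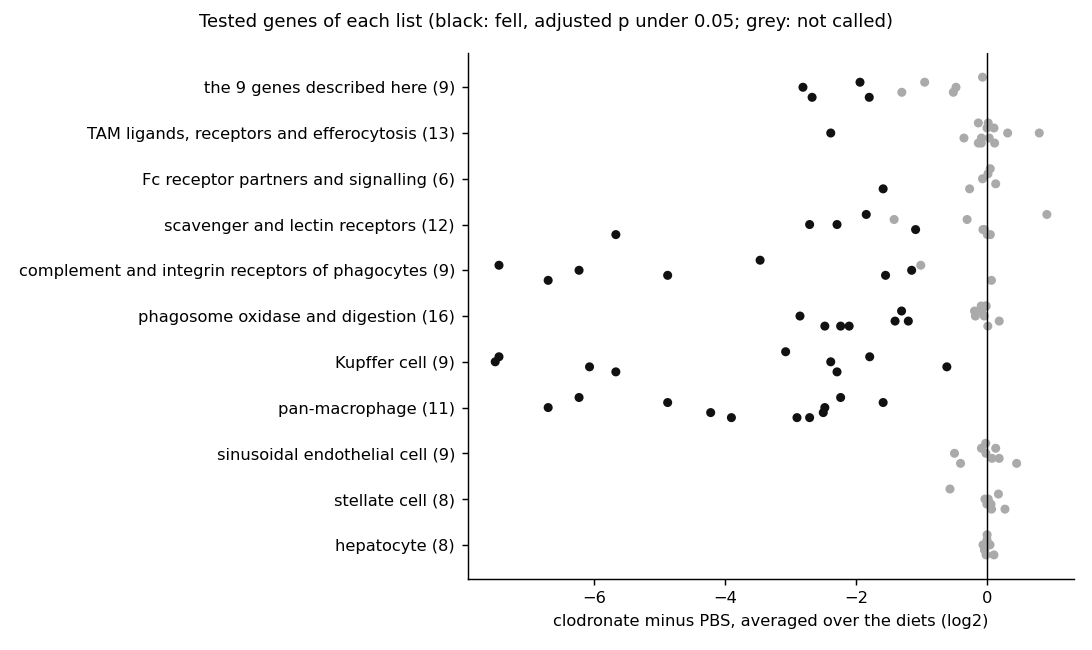
Mean log2 difference between clodronate and PBS, averaged over the diets, for each tested gene (1 point) of the 9 genes described here, of 5 pathway lists and of 5 lists of cell type markers, with the number of tested genes in brackets. Black points fell at an adjusted p under 0.05 in limma, and all 9 Kupffer cell and 11 pan-macrophage markers are black while the endothelial, stellate and hepatocyte markers are grey.

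Markers of other phagocytes were mostly too dim to follow. Of 4 monocyte markers with a probe set 1, Plac8, was above the floor, with a mean difference of 0.06 (limma, Benjamini-Hochberg adjusted p = 1). The neutrophil markers S100a8 and S100a9 were above the floor on the low-fat clodronate array alone, at 4.15 and 4.05, and the other 5 with a probe set were below 4 on every array. The summed linear signal of the neutrophil list was 28.6 and 53.9 on the low-fat PBS and clodronate arrays and 33.0 and 37.5 on the high-fat ones. Zbtb46 was the dendritic cell marker above the floor, 1 of 6, and Ighm, the heavy chain of IgM, the B cell marker, 1 of 5. Ighm was at 6.14 and 6.80 on the low-fat PBS and clodronate arrays and at 6.25 and 7.26 on the high-fat ones, a mean difference of 0.84 ± 0.25 (SD over the 2 diets, n = 2; limma, Benjamini-Hochberg adjusted p = 0.0559). B cells also carry Fcgr2b, and their part in its signal was not tested. All 8 T and NK cell markers were below 4 on all 4 arrays. Neutrophils and monocytes also carry Fcgr3, Fcgr4 and Lyz2, and the part of these cells in the signals was not tested.

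The genes whose profiles over the 4 arrays lay closest to those of the members were compared with members that ranged over at least 1 (log2), with values below 4 taken as 4. Closeness was the root mean square distance between profiles centred on their own mean, among 8407 genes. Closest to Axl were Aif1, a macrophage calcium-binding protein, at 0.04, and Fabp7, a fatty acid binding protein, at 0.10. Closest to Lyz2 were Fcna, a ficolin of Kupffer cells, at 0.05, and Fabp7 again at 0.12. Closest to Fcgr3 were Ctla2b at 0.10 and Cd53, a tetraspanin of leukocytes, at 0.12. Msr1 was closest to Sema6d at 0.13 and Mysm1 at 0.15. For Axl, Fcgr3, Aif1, Ctla2b and Fabp7 the clodronate values are the floor itself, which makes such profiles alike, and 4 arrays are few points for a likeness.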

How the data were processed

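The deposited table holds log2 expression values of 45101 probe sets on 4 arrays, computed by the authors in GCRMA 2.24.1 (version per the submitters' processing notes). This method corrects background from probe sequence, equalises arrays and summarises probes, and leaves dim values uncertain. Platform annotation gave 34958 probe sets 1 symbol, 932 several and 9211 none, and Entrez identifiers matched all 9 members in RefSeq. The one-symbol probe set with the highest mean stood for its gene.

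A total of 8650 genes reached 4 on some array. They entered an additive limma model of clodronate and diet (limma 3.58.1, R 4.3.3), with a mean-dependent prior in eBayes, and p-values were adjusted over all of them by Benjamini-Hochberg with a threshold of 0.05. Each gene had 1 residual degree of freedom beside a prior of 8.46, and the code was tested on simulated data. With 4 single arrays, that residual is how unequal a gene's response to clodronate was under low-fat and high-fat feeding. A true dependence of the response on diet and technical spread between arrays both enter it as error and cannot be told apart. The p-values therefore do not measure the spread between mice. For differences of single arrays, values below 4 were raised to 4, which turns the differences that involve them into bounds. No set test was run. Python 3.11.15 with numpy 2.4.6 and with pandas 2.3.3 did the rest.

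All members are named. In pathway lists the 4 largest called and the 2 largest uncalled genes measured on all arrays are named, with Fcgr2b and Lyz1 always named, and the 2 closest genes by profile, and Tyro3, Syk and Btk were added as undetected genes after their values were seen. The members, lists and tests were chosen with earlier results of these data known.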

Additional observations from a re-analysis of the deposited data

Results flagged for a closer look

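The diet difference of Mertk had opposite signs with the 2 injections. With PBS the high-fat array was higher by 0.26 (log2) than the low-fat array, and with clodronate the difference was -0.37. Each value is a difference of 2 single pooled arrays, these comparisons have no array in common, and the difference between them was not tested. Among the members measured on all 4 arrays, Gas6, Msr1, Mpeg1 and Lyz2 were lower on the high-fat diet with either injection. The median diet difference over all genes was 0 with PBS and -0.08 with clodronate, and the latter became 0.004 with arrays centred on the median.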

How the results depend on the processing

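Calls of Lyz2 and Fcgr3 for clodronate held in all 9 alternatives and that of Axl in the 8 in which it was tested; averaged over its probe sets Axl was below 4 on all arrays. Between 3 and 4 members fell in each alternative, and 0 were called for diet. Only 7 of the 9 were tested where genes had to reach 5 on an array, which left out Fcgr1 and Fcgr4. The mean over probe sets also left 7, without Axl and Fcgr1. Fcgr4 lost its call without the mean-dependent prior and with values below 4 set to 4, where the diet differences of Fcgr4 and Fcgr1, neither called, changed sign to -0.10 and 0.067. On the high-fat diet 2 members in place of 4 were 2-fold or more lower with values below 5 set to 5 and with the mean over probe sets, 3 with centring or quantile normalization, which lost Msr1, and 6 with values below 3 set to 3 or with no floor, which added Fcgr1 and Fcgr4. On the low-fat diet the count of 3 became 2 with values below 5 set to 5 and with the mean over probe sets, which lost Axl. It became 4 with values below 3 set to 3 or with no floor, which added Fcgr4. The median difference between the diets' clodronate effects over the 8 members at 4 or more on both PBS arrays was -0.08. It was 0.06 with the floor at 3 or none and 0.02 with quantile normalization. The 8 include Axl, Fcgr3 and Fcgr4, whose clodronate values were below the floor, so that the sign of this median is not settled. The differences of Mertk, Gas6, Msr1, Mpeg1 and Lyz2, above the floor on all 4 arrays, were the same with the floor at 4 and with none. Without the mean-dependent prior 12 pathway genes fell in place of 21. Over all genes 84 fell, and 39 without that prior, 53 with values below 4 set to 4, 51 with every probe set and 50 without the other factor as a term. The 10 that rose became 0 without that prior and without the other factor, 1 with no filter, with values below 4 set to 4 and with every probe set, 2 with the mean over probe sets and 6 with quantile normalization. The cause was not tested in these cases. No alternative could leave out a replicate, since a group was 1 array. The labels give no replicate numbers to pair by. The diet term compares the injections within each diet, and without it Axl, Fcgr3, Fcgr4 and Lyz2 were still called. Dim signal limits Fcgr1 and Fcgr4 most.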
